A study of Macaca mulatta with 6 samples.

Results

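The genes described here carry glucose into the cell and break it down, by way of pyruvate, to lactate or through the citric acid cycle. Of a list of 48 such genes, 46 were in the table of 17795 genes: 4 for glucose entry, 14 for glycolysis, 4 for lactate, 11 for the pyruvate gate and 13 for the citric acid cycle. TPI1 and ENO1 were not analysed here. Of the 46, 45 had enough counts to be tested. The exception was PFKFB3, an activator of glycolysis, counted 2, 8 and 8 times in the libraries of SSC PDGF+ and 1, 4 and 10 times in those of SSC PDGF-.

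Glycolysis splits glucose into pyruvate in the cytosol and yields a small amount of ATP without oxygen. Pyruvate is then either reduced to lactate, which leaves the cell, or taken into mitochondria, where the pyruvate dehydrogenase complex passes it to the citric acid cycle, and kinases of the PDK family switch that complex off. In the testis, Sertoli cells supply lactate to developing germ cells, and spermatogenic cells carry their own forms of several of these enzymes.

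The libraries were bulk RNA sequencing of rhesus monkey (Macaca mulatta) SSCs, spermatogonial stem cells, grown in hydrogel droplets in a serum-containing medium with sodium pyruvate, GDNF and EGF. There were 3 libraries with PDGF, platelet-derived growth factor (SSC PDGF+), and 3 without it (SSC PDGF-), and the labels name testis as the tissue. In both groups, replicate 1 formed batch 1 and replicates 2 and 3 formed batch 2. Donors, animal ages and days in culture are not given in the sources used here, and nothing says that the replicates were separate cultures, so p-values measure only the spread between these libraries, which may be technical.

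Totals were 10593804 to 14102695 counts per library. Of the markers listed for undifferentiated spermatogonia, NANOS2 had no count. DDX4, an RNA helicase of germ cells in general, was counted 13 times in all with PDGF and 69 times without. In the same order, GFRA1 was counted 5 and 18 times, ZBTB16 1 and 9, SALL4 1 and 20, and DAZL 9 and 37. MAGEA4 had 0 and 1 counts, PIWIL4 3 and 0, and ERBB4 4 and 1. Of the 13 markers of this list that were present, 6 had enough counts to be tested. ID4 and ETV5, also on this list, had means of 131 and 85.4 CPM with PDGF and 163 and 74.6 CPM without (CPM, counts scaled to a common library total). Both passed only when replicate numbers were blocked (edgeR adjusted p = 4.95e-05 for ID4, lower, and 0.0112 for ETV5, higher). FGFR3, a growth factor receptor of the same list, was lower, at means of 13.7 CPM with PDGF and 57.8 CPM without (log2 fold change -2.07, edgeR adjusted p = 0.0189), in 3 of 6 fits that left out a library. DDX4 and TSPAN33 of this list were lower too (log2 fold change -2.72 and -3.56, edgeR adjusted p = 0.0284 and 0.00326), in 3 and 6 of those fits. TSPAN33 was counted 10 times with PDGF and 98 times without. Stromal transcripts were abundant in both groups, with COL1A1, a fibrillar collagen chain, at a mean of 6841 CPM with PDGF and 4522 CPM without, and FN1, fibronectin, at 6548 and 5491 CPM, neither past the threshold without the block. The stromal markers that passed were lower: COL3A1, a further collagen chain, at 2852 against 5972 CPM, ACTA2, smooth muscle actin, at 139 against 317 CPM, and PDGFRA, a PDGF receptor, at 550.2 against 812 CPM. The median log2 fold change over the 11 stromal markers was -0.42. The 11 stromal markers together took 2.23% to 2.61% of the counts in SSC PDGF+ and 2.40% to 2.51% in SSC PDGF-. All 6 tested spermatid markers were lower in SSC PDGF+ (median log2 fold change -3.18), among them TNP1 and TNP2, transition proteins of sperm chromatin, at means of 30.0 and 31.3 CPM against 296 and 281 CPM. Their list took 0.0115% to 0.0149% of the counts there against 0.0632% to 0.0884% in SSC PDGF-. Of the other marker lists, 3 of 4 tested epithelial, 3 of 6 undifferentiated spermatogonial, 3 of 11 stromal, 1 of 4 Leydig and 1 of 2 spermatocyte markers were lower, 1 of 4 Sertoli markers (CLU) was higher, and none of 5 endothelial and 2 myeloid markers passed in edgeR (1 and 0 at an unadjusted p under 0.05). With the block, 1 spermatogonial, 3 stromal, 2 Leydig and 1 endothelial marker were higher. Lower were 5, 6, 1 and 1 of these lists and 4 epithelial markers. These counts stand beside 7.61% of all tested genes higher and 10.7% lower without the block, and 31.1% and 29.0% with it. Of the Sertoli markers with too few counts to test, FATE1 had 0 counts with PDGF and 33 without, and FSHR 0 and 2. The part of these cell types in the results below was not tested, and in bulk samples a smaller number of cells of a type cannot be told apart from less RNA per cell.

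The comparison asked which steps of glucose use changed in RNA level when PDGF was added. Levels below are CPM after TMM normalization, and a gene was called higher or lower at an edgeR quasi-likelihood p, adjusted over all 11539 tested genes, under 0.05. By this rule 14 of the 45 tested members were higher in SSC PDGF+, where 7.61% of all tested genes were, and 1 member was lower, where 10.7% of all tested genes were. The 14 were 3 glucose entry genes, 6 of glycolysis, 3 of lactate and 2 of the pyruvate gate, and the single lower member was PDK2, also at the pyruvate gate. In the citric acid cycle, 0 of 13 members passed in edgeR, DESeq2 or limma-voom, and 2, SUCLA2 and SUCLG1, had an unadjusted edgeR p under 0.05. The median log2 fold change was 1.83 over the 4 glucose entry genes, 0.72 over 13 of glycolysis, 0.73 over 4 of lactate, 0.10 over 11 of the pyruvate gate and 0.12 over 13 of the citric acid cycle, beside 0.02 over all tested genes.

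**Figure D1:**
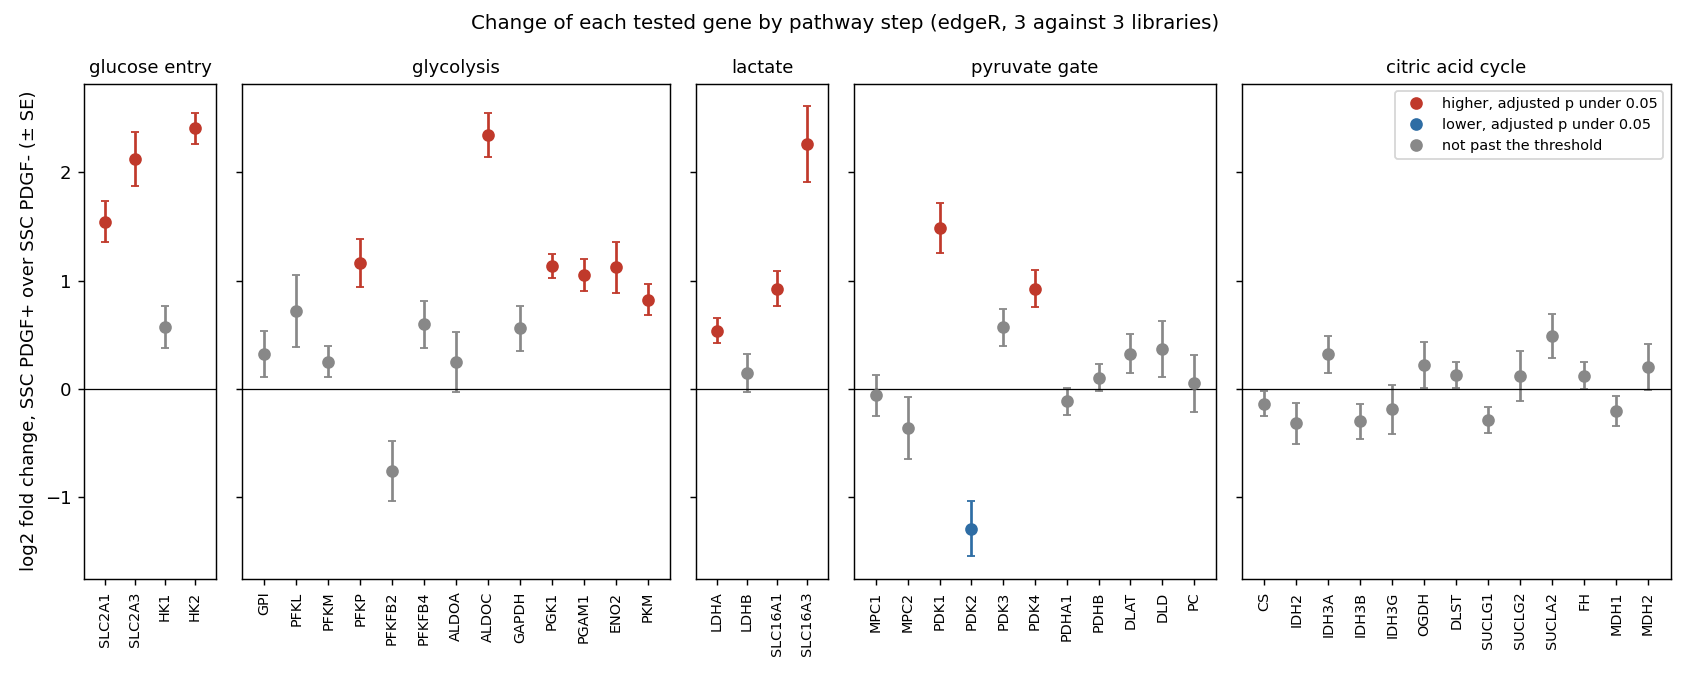
Log2 fold change of SSC PDGF+ over SSC PDGF- for the 45 tested genes, in 5 panels by pathway step, with bars of 1 standard error. The 14 red points, higher at an adjusted p under 0.05, lie mostly in the first 3 panels, the blue point is PDK2, and the 13 genes of the citric acid cycle lie between -0.32 and 0.49.

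The batches carry part of the spread, so the same comparison was also made within replicate numbers. With the replicate number as a block, 30 members were higher and 9 lower, but so were 31.1% and 29.0% of all tested genes. By a count that needs no model, 20 members were higher and 4 lower with no overlap between the groups in CPM, beside 18.2% and 19.3% of all tested genes. None of the 15 called members overlapped between the groups, so the same direction in both batches was fixed for them in advance. Of the 15, 13 kept their call whichever library was left out, the exceptions being ENO2 and LDHA. Replicates 2 and 3 of a group may not be separate cultures, and with their counts summed, which leaves 2 samples a group, 8 members were higher (SLC2A1, SLC2A3, HK2, ALDOC, PGK1, PGAM1, SLC16A3 and PDK1) and 0 lower in edgeR, where PDK2 had an adjusted p of 0.0854 and was the 1 member lower at an unadjusted p under 0.05.

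The promoter windows of 5 members are shown because members that moved together could be read side by side: the 4 higher members whose window held at least 3 copies of the letters searched, chosen for that, and PDK2, the lower member. Each window runs from 250 bases before to 50 after the annotated gene start, and was read 5′ to 3′ on the gene's strand from the Mmul_10 genome with RefSeq annotation release 103. Capitals mark ACGTG or GCGTG on either strand, the letters at the core of the hypoxia response element, which sits in promoters of several glycolytic genes. CACGTG, an E-box, holds ACGTG on both strands and was counted as 2 overlapping copies.
PGK1 (chrX:74831528-74831827, plus strand): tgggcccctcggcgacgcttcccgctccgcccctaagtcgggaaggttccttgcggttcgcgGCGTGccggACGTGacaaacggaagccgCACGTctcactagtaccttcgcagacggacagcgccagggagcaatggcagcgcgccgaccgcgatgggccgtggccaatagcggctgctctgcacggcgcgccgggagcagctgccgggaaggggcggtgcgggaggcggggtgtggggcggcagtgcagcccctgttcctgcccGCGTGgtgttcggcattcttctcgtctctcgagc
PGAM1 (chr9:97873770-97874069, plus strand): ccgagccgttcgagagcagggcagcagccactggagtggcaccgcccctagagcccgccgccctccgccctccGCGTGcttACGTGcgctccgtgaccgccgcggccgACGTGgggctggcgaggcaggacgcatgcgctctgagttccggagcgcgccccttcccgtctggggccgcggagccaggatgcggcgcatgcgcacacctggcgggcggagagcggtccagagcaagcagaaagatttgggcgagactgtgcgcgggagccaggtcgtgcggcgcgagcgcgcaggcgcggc
LDHA (chr14:47189921-47190220, minus strand): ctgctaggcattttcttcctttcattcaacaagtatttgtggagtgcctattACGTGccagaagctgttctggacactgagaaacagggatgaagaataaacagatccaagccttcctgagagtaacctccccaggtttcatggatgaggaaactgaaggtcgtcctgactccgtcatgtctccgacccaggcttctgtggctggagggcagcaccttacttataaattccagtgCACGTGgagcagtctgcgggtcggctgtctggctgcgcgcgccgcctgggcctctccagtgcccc
SLC16A1 (chr1:111271292-111271591, plus strand): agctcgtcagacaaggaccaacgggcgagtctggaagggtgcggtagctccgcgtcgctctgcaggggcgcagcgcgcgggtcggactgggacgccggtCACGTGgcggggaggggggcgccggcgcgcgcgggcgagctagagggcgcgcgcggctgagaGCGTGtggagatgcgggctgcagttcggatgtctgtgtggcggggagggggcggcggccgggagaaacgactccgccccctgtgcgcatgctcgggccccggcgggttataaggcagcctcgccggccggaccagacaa
PDK2 (chr16:46697242-46697541, minus strand): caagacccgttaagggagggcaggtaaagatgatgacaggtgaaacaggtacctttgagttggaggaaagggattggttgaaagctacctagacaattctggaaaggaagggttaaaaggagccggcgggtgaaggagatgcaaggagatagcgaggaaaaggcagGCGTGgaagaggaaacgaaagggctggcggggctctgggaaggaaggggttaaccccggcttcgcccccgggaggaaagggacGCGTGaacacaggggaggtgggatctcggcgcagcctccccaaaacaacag
PGK1 held 4 copies, starting at -188, -179, -160 and 16 counted from the gene start as 0, and PGAM1 held 3 at -177, -169 and -142. The letters were common in windows of this length. They were found in 9 of the 14 higher members (64.3%), in 19 of the 31 other members (61.3%) and in 58.7% of the 11239 tested genes with a window. At least 2 copies were held by 35.7% of the higher members, 41.9% of the other members and 29.8% of those tested genes. Members that were not called held as many as those shown: PDHB had 5, PDHA1 4, and GAPDH, SUCLG1 and FH 3 each. SLC2A1, SLC2A3, PFKP, ALDOC and PDK1 were among the higher members with no copy. The match is a description of letters and no measurement of binding.

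Glucose entry had the largest median change of the 5 steps. HK2, a hexokinase that phosphorylates glucose at the mitochondrial surface, lies on chr13:33912654-33970803 and had 125, 127 and 126 CPM in SSC PDGF+ and 26.1, 24.2 and 21.0 CPM in SSC PDGF-. The groups stood well apart and the SSC PDGF+ libraries were almost equal. HK2 rose 5.30-fold (log2 fold change 2.41 ± 0.15 SE, edgeR adjusted p = 8.05e-05), the largest change among the members in this fit.

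SLC2A3, the high-affinity glucose transporter GLUT3, had 130, 100.0 and 104 CPM in SSC PDGF+ against 35.2, 21.2 and 20.2 CPM in SSC PDGF-. Replicate 1 was the highest library of each group, and the groups did not overlap. SLC2A3 rose 4.36-fold (log2 fold change 2.12 ± 0.24 SE, edgeR adjusted p = 0.00109). SLC2A1, the widely expressed transporter GLUT1, had 53.7, 75.3 and 66.5 CPM with PDGF and 19.6, 26.1 and 21.4 CPM without. It rose 2.92-fold with no overlap (log2 fold change 1.54 ± 0.19 SE, edgeR adjusted p = 0.00148).

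HK1, the constitutive hexokinase, was the most abundant gene of this step, also per exon length. Its libraries had 215, 293 and 294 CPM in SSC PDGF+ and 143, 188 and 208 CPM in SSC PDGF-. The highest SSC PDGF- library lay just under the lowest SSC PDGF+ library. The log2 fold change of 0.57 ± 0.19 SE did not pass (edgeR adjusted p = 0.0732), and passed with the replicate block (adjusted p = 1.55e-09).

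In glycolysis, 6 of 13 tested members rose. ALDOC, the brain-type aldolase, lies on chr16:24196623-24200774 and had 42.1, 59.3 and 59.0 CPM in SSC PDGF+ and 12.2, 9.58 and 9.70 CPM in SSC PDGF-. Batch 1 was the lowest library of the one group and the highest of the other, so the gap was smaller there (log2 1.79) than in batch 2 (2.61). Over all libraries ALDOC rose 5.09-fold (log2 fold change 2.35 ± 0.21 SE, edgeR adjusted p = 0.000324).

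PFKP, the platelet form of phosphofructokinase, the enzyme of the committed step, had 146, 232 and 230 CPM with PDGF and 72.2, 102 and 97.5 CPM without. Replicate 1 was the lowest library of each group. PFKP rose 2.24-fold (log2 fold change 1.17 ± 0.22 SE, edgeR adjusted p = 0.00936). PGK1, phosphoglycerate kinase, which makes the first ATP of the pathway, had 768, 773 and 812 CPM against 364, 366 and 340 CPM. The libraries of each group were close together, and the rise was 2.20-fold (log2 fold change 1.14 ± 0.11 SE, edgeR adjusted p = 0.000512).

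PGAM1, phosphoglycerate mutase, had 724, 870 and 911 CPM in SSC PDGF+ and 353, 435 and 420 CPM in SSC PDGF-. It rose 2.08-fold with no overlap (log2 fold change 1.05 ± 0.14 SE, edgeR adjusted p = 0.0023). ENO2, the neuronal enolase, was far less abundant, also per exon length, at 10.5, 12.7 and 11.6 CPM against 4.93, 6.80 and 4.21 CPM. It rose 2.18-fold (log2 fold change 1.12 ± 0.24 SE, edgeR adjusted p = 0.0141), and 16.9% of its exon bases were shared with LRRC23. Without SSC PDGF+ replicate 2, SSC PDGF+ replicate 3 or SSC PDGF- replicate 3 it no longer passed, the highest of these adjusted p in edgeR being 0.0608.

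PKM, pyruvate kinase of most tissues, which makes pyruvate and ATP, had 2141, 2629 and 2708 CPM in SSC PDGF+ and 1219, 1502 and 1500 CPM in SSC PDGF-. Replicate 1 was lowest in both groups, and the groups did not overlap. The rise was 1.77-fold (log2 fold change 0.83 ± 0.14 SE, edgeR adjusted p = 0.00613). PKM and PARP6 had identical counts in all 6 libraries, so the reads cannot be assigned to a single gene.

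GAPDH, often used as a reference gene in expression assays, was the most abundant member. It had 3556, 5055 and 4995 CPM in SSC PDGF+ and 2251, 3426 and 3561 CPM in SSC PDGF-. The groups overlapped by 1 pair of libraries: SSC PDGF- replicate 3 lay just above SSC PDGF+ replicate 1. The log2 fold change of 0.56 ± 0.21 SE did not pass (edgeR adjusted p = 0.1), while with the replicate block it passed (adjusted p = 2.3e-12), and within batches the log2 gap was 0.66 (batch 1) and 0.53 (batch 2).

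The other 6 tested glycolysis members did not pass without the block. ALDOA, the muscle-type aldolase and the most abundant of them, had a log2 fold change of 0.25, GPI, which isomerizes glucose 6-phosphate, 0.33, and the phosphofructokinases PFKM and PFKL 0.25 and 0.72. The bifunctional enzymes that set the level of fructose 2,6-bisphosphate, the activator of phosphofructokinase, had opposite signs: 0.60 for PFKFB4 and -0.76 for PFKFB2. With the block, PFKFB2 passed as lower (edgeR adjusted p = 0.0098) and the other 5 as higher. Per kilobase of exon, GAPDH led with 3024 CPM in SSC PDGF+ and 2053 CPM in SSC PDGF-, and PKM (733 and 414 CPM), PGAM1 (666 and 321 CPM), ALDOA (481 and 405 CPM) and PGK1 (435 and 198 CPM) came next among the glycolysis genes with PDGF. The glycolysis genes together took 0.983%, 1.27% and 1.28% of the counts with PDGF and 0.613%, 0.818% and 0.826% without, means of 1.18% ± 0.168 and 0.752% ± 0.121 (SD, n = 3).

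**Figure D2:**
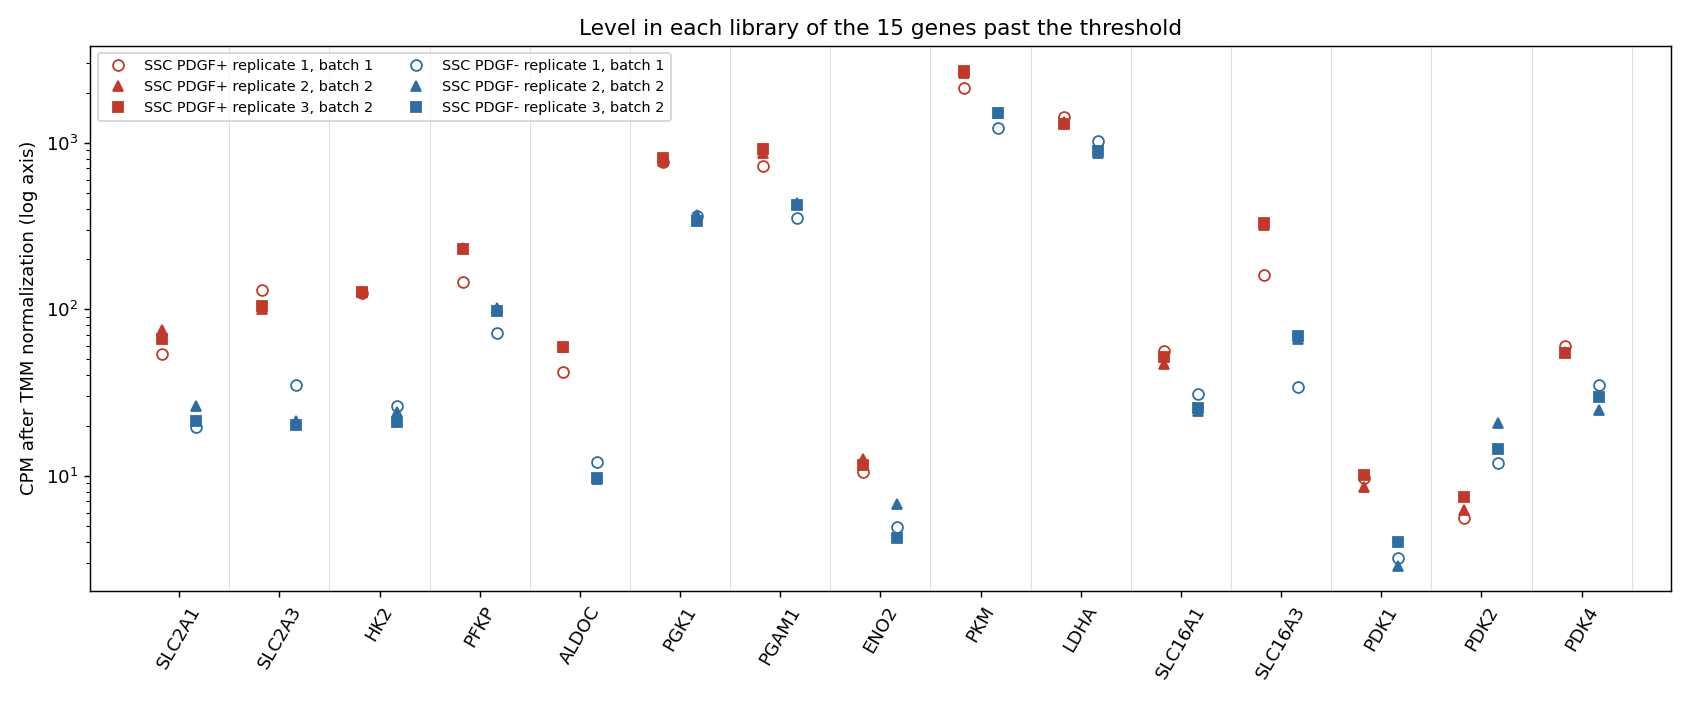
Level of each of the 15 genes past the threshold in every library, as CPM after TMM normalization on a log axis, with SSC PDGF+ in red and SSC PDGF- in blue, open circles for replicate 1 (batch 1) and filled symbols for replicates 2 and 3 (batch 2). In every gene the red and blue points do not overlap, and PDK2 is the gene with blue above red.

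At the lactate step, 3 of 4 members rose. SLC16A3, the transporter MCT4, which exports lactate from glycolytic cells, lies on chr16:78577901-78588712 and had 159, 321 and 329 CPM in SSC PDGF+ and 34.3, 65.8 and 69.1 CPM in SSC PDGF-. Batch 2 was higher than batch 1 in both groups (log2 1.03 with PDGF and 0.98 without), yet the groups did not overlap. The rise was 4.79-fold (log2 fold change 2.26 ± 0.35 SE, edgeR adjusted p = 0.00405).

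SLC16A1, the transporter MCT1, which moves lactate and pyruvate in either direction, had 55.8, 46.6 and 51.4 CPM with PDGF and 30.8, 24.6 and 25.5 CPM without. It rose 1.90-fold with no overlap (log2 fold change 0.93 ± 0.16 SE, edgeR adjusted p = 0.00651). LDHA, the lactate dehydrogenase subunit that favours lactate formation, had 1423, 1330 and 1295 CPM against 1021, 872 and 893 CPM. Here too the groups did not overlap, and the rise of 1.45-fold was the smallest of the 14 (log2 fold change 0.54 ± 0.12 SE, edgeR adjusted p = 0.0161).

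The LDHA call was also the least stable. It was lost without either of replicates 2 and 3 of either group, the highest adjusted p in edgeR being 0.0821. LDHB, the subunit of oxidative tissues, had 402, 319 and 312 CPM in SSC PDGF+ and 379, 279 and 277 CPM in SSC PDGF-. These groups overlapped, and its log2 fold change was 0.15 ± 0.17 SE (edgeR adjusted p = 0.597, and 0.006 with the block). Other stretches of the genome at least 95% identical to LDHB over 500 bases or more numbered 8. At least 1 such copy was found for 13 members, so part of their reads may be shared. Among these were the higher members SLC2A3, PGK1, PGAM1, PKM, LDHA and SLC16A3.

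At the pyruvate gate the PDK kinases, which phosphorylate and switch off pyruvate dehydrogenase, did not move as 1 group. PDK1 had 9.72, 8.52 and 10.1 CPM in SSC PDGF+ and 3.20, 2.87 and 4.02 CPM in SSC PDGF-. The groups were far apart relative to their spread, and PDK1 rose 2.80-fold (log2 fold change 1.49 ± 0.23 SE, edgeR adjusted p = 0.00388). PDK4, the kinase known for its rise in fasting, had 60.3, 55.2 and 54.6 CPM against 35.2, 24.7 and 29.5 CPM. It rose 1.90-fold with no overlap (log2 fold change 0.93 ± 0.17 SE, edgeR adjusted p = 0.00843).

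PDK2, a kinase found in most tissues, lies on chr16:46681395-46697291 and had 5.60, 6.26 and 7.44 CPM in SSC PDGF+ and 12.0, 20.8 and 14.5 CPM in SSC PDGF-. Every library with PDGF was below every library without it. PDK2 fell 2.45-fold (log2 fold change -1.29 ± 0.26 SE, edgeR adjusted p = 0.0112). PDK3 had 23.7, 22.4 and 25.8 CPM against 18.6, 14.5 and 15.5 CPM. These did not overlap either, but the log2 fold change of 0.57 ± 0.17 SE just missed the threshold (edgeR adjusted p = 0.0537, and 0.000452 with the block).

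None of the 4 pyruvate dehydrogenase subunits passed in edgeR without the block, in DESeq2 or in limma-voom, and 0 had an unadjusted edgeR p under 0.05. DLD, a subunit of pyruvate dehydrogenase shared with other complexes and the gene of this step with the highest CPM over all libraries, though not without PDGF or per exon length, where PDHB was higher, had 137, 102 and 92.8 CPM in SSC PDGF+ and 118, 62.8 and 75.7 CPM in SSC PDGF-. The groups overlapped (log2 fold change 0.37 ± 0.26 SE, edgeR adjusted p = 0.351). PDHA1, PDHB and DLAT, the other subunits, had log2 fold changes of -0.12, 0.10 and 0.33. The carriers that bring pyruvate into mitochondria had -0.06 (MPC1) and -0.36 (MPC2), and PC, pyruvate carboxylase, which makes oxaloacetate from pyruvate, had 0.05. With the block, PDK3, DLAT and DLD passed as higher and MPC2 as lower (edgeR adjusted p = 0.000375 for DLAT, 0.000114 for DLD and 0.0104 for MPC2).

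In the citric acid cycle, log2 fold changes ranged from -0.32 to 0.49, with 7 members above 0 and 6 below. CS, citrate synthase, the entry enzyme and the most abundant of them, had 568, 632 and 608 CPM in SSC PDGF+ and 620, 671 and 696 CPM in SSC PDGF-. The groups overlapped, and the log2 fold change was -0.14 with a 95% interval of -0.36 to 0.09 (edgeR adjusted p = 0.445). CS had the same counts as CNPY2 in all 6 libraries, so this value cannot be given to either gene alone.

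The extremes were SUCLA2, the ATP-forming subunit of succinyl-CoA ligase, at 0.49 (95% interval 0.09 to 0.88, edgeR adjusted p = 0.133), and IDH2, the NADP-dependent isocitrate dehydrogenase, at -0.32 (-0.69 to 0.06, edgeR adjusted p = 0.284). The subunits of the NAD-dependent isocitrate dehydrogenase had 0.32 (IDH3A), -0.30 (IDH3B) and -0.19 (IDH3G). OGDH and DLST, of the oxoglutarate dehydrogenase complex, had 0.22 and 0.13, and SUCLG1 and SUCLG2, further succinyl-CoA ligase subunits, -0.29 and 0.12. FH, fumarase, had 0.12, and the malate dehydrogenases MDH1 of the cytosol and MDH2 of mitochondria -0.20 and 0.20. With the block 5 passed as higher and 6 as lower, none beyond 0.49 in size. The step took 0.209% to 0.215% of the counts in SSC PDGF+ and 0.213% to 0.215% in SSC PDGF-, means of 0.212% ± 0.00308 and 0.214% ± 0.00149 (SD, n = 3).

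The shift between related genes can be read within each library, where it does not depend on normalization. In SSC PDGF+ HK2 made up 25.9%, 20.7% and 20.5% of HK1 plus HK2 per exon length, and in SSC PDGF- 9.91%, 7.17% and 5.69%. PDK1 made up 42.7%, 36.9% and 36.8% of PDK1 plus PDK2 per length against 10.3%, 5.60% and 10.6%. Neither pair overlapped between groups, and the log2 ratio differed by 1.84 for HK2 over HK1 and by 2.74 for PDK1 over PDK2.

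Of the 11 pairs compared, 8 did not overlap. Except for PFKFB4 over PFKFB2 and SUCLG2 over SUCLA2, these pairs hold a called member and are not independent of the calls above. The share of other gene pairs without overlap was not computed. ALDOC over ALDOA differed by 2.07, PFKFB4 over PFKFB2 by 1.41, SLC16A3 over SLC16A1 by 1.32, PFKP over PFKM by 0.90 and LDHA over LDHB by 0.39, all higher with PDGF, while SUCLG2 over SUCLA2 differed by -0.35. Each of these 8 had p = 0.1 in a two-sided exact permutation test, the smallest that 3 libraries against 3 allow, and 0.138 after adjustment over the 11 pairs. SLC2A1 over SLC2A3, PFKL over PFKM and PFKFB3 over PFKFB2 overlapped (exact permutation p = 0.3, 0.3 and 0.5). Despite its rise, ALDOC remained a small part of aldolase, at 4.57% to 5.52% of ALDOA plus ALDOC per length with PDGF and 0.920% to 2.11% without.

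**Figure D3:**
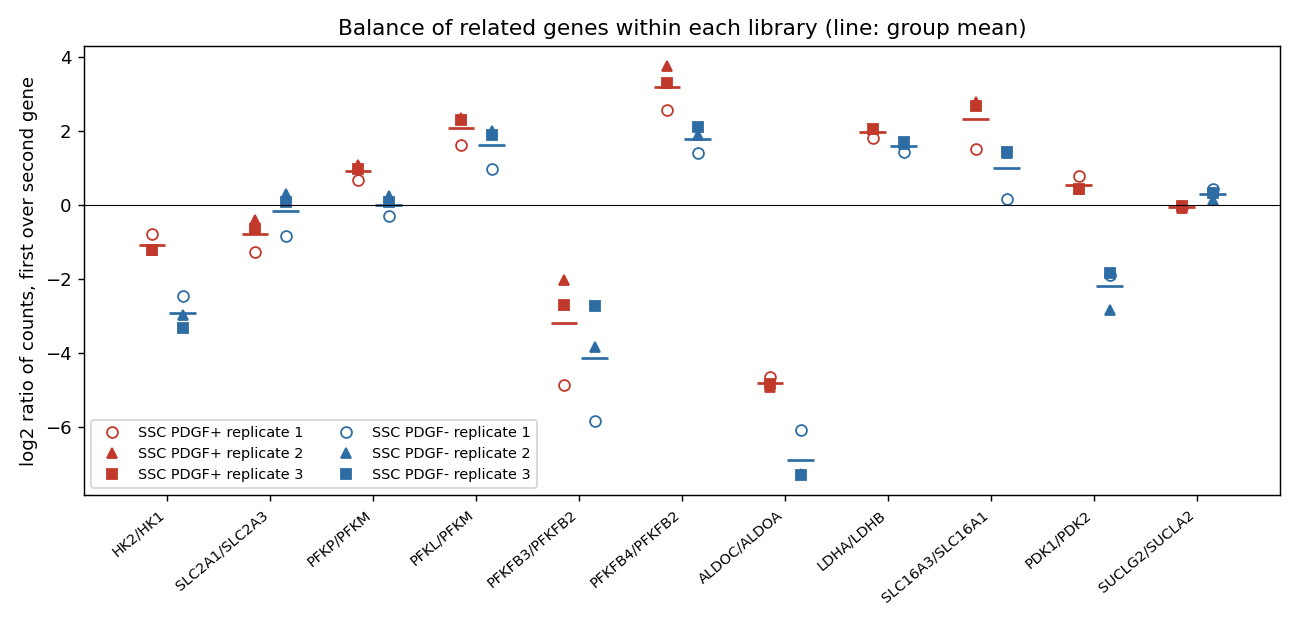
Log2 ratio of the counts of 2 related genes within each library, for 11 pairs, with SSC PDGF+ in red, SSC PDGF- in blue and short lines at the group means. PDK1/PDK2 (difference 2.74) and ALDOC/ALDOA (2.07) show the widest gaps between the groups, while SLC2A1/SLC2A3, PFKL/PFKM and PFKFB3/PFKFB2 overlap.

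Replicate 1 stood apart from replicates 2 and 3 within both groups, and for the members this difference ran with base composition. From batch 1 to batch 2 the members moved by log2 -0.55 to 1.03 in SSC PDGF+ and by -0.78 to 0.98 in SSC PDGF-. SLC16A3 and PFKL, with 67.3% and 63.9% GC in their exons, were higher in batch 2, and DLD, with 39.5%, was lower. Across the 45 tested members, which share the same libraries, GC content and the batch difference had a Pearson correlation of 0.91 with PDGF and 0.82 without, given as a description. GC content and the log2 fold change with PDGF had 0.13. MPC1 and PC had opposite signs in the batches, and the median difference over the members was 0.26 in batch 1 and 0.37 in batch 2.

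**Figure D4:**
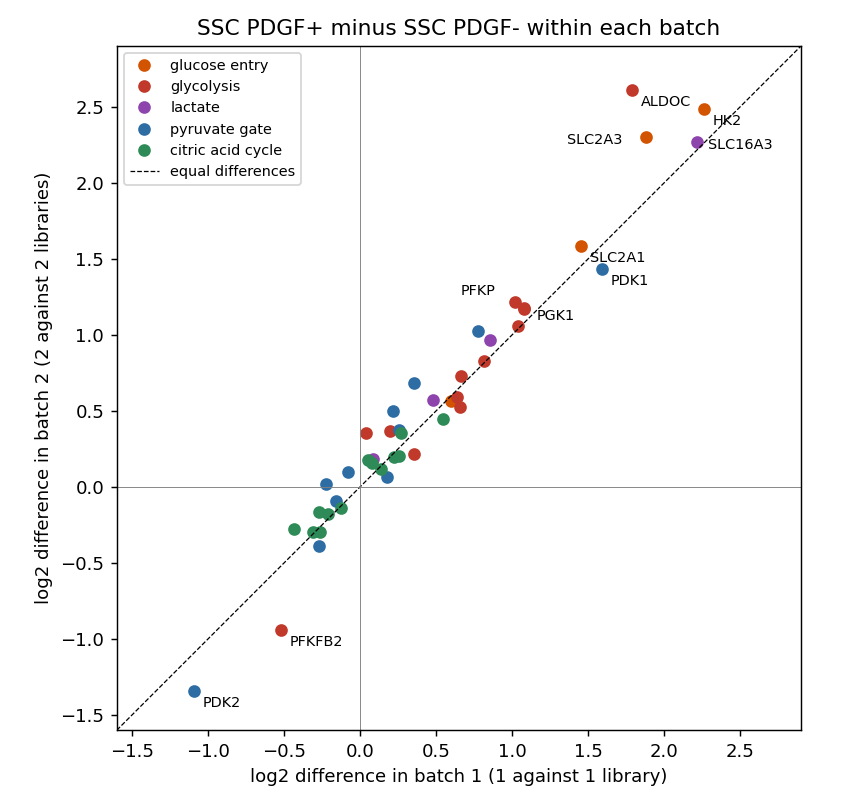
Log2 difference of SSC PDGF+ from SSC PDGF- in batch 1 (horizontal, 1 library against 1) and in batch 2 (vertical, 2 against 2) for the 45 tested genes, coloured by pathway step, with a dashed line of equal differences. The points follow the line from PDK2 (-1.09 and -1.34) to HK2 (2.26 and 2.49), and ALDOC (1.79 and 2.61) lies farthest above it among the named genes.

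Of 3 tested forms of these enzymes made mainly in germ cells, 2 fell and 0 rose, where 10.7% of all tested genes were lower. LDHC, the lactate dehydrogenase of spermatogenic cells, was counted 3, 8 and 11 times with PDGF and 66, 57 and 77 times without, and fell (log2 fold change -3.47 ± 0.45 SE, edgeR adjusted p = 0.0018). GAPDHS, the sperm form of GAPDH, had 16.5, 23.7 and 22.2 CPM against 40.2, 61.3 and 64.2 CPM. It also fell with no overlap (log2 fold change -1.41 ± 0.23 SE, edgeR adjusted p = 0.00506). ENO4, a sperm enolase, had a log2 fold change of -1.12 that did not pass (edgeR adjusted p = 0.158), and PDHA2, the testis form of PDHA1, had 5 counts against 41 and was not tested. The spermatid markers given above fell in the same libraries, and their part in these changes was not tested.

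Of 24 tested further isozymes and partners of the pathway, 2 rose and 5 fell, with a median of 0.09. With the block 10 rose and 8 fell. Over all tested genes 7.61% were higher and 10.7% lower, and with the block 31.1% and 29.0%. TIGAR, a phosphatase that lowers fructose 2,6-bisphosphate, rose from 20.6, 25.4 and 22.7 CPM in SSC PDGF- to 50.8, 61.4 and 66.6 CPM in SSC PDGF+ (log2 fold change 1.38, edgeR adjusted p = 0.00149), and ADPGK, an ADP-dependent glucokinase, by 0.63 (adjusted p = 0.0191), a call that held in 3 of 6 fits that left out a library. HKDC1, a further hexokinase, had 0 counts in each SSC PDGF+ library against 36, 35 and 55, at least 52.3-fold lower with a floor of 3 counts over the group. OGDHL, a relative of OGDH, fell by 2.38 in log2 units (edgeR adjusted p = 0.000602), LDHD, which oxidizes D-lactate, by 1.93 (adjusted p = 0.0129), ENO3, the muscle enolase, by 1.77 (adjusted p = 0.0077) and the lactate carrier SLC16A7 by 1.26 (adjusted p = 0.0102).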

How the data were processed

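The 6 libraries were compared, grouped by the PDGF condition in the sample titles. The authors deposited a table of estimated counts per gene, raw and without normalization. The submitters' processing notes name fastp, HISAT2 2.1.0, SAMtools and featureCounts 2.0.1, and both Mmul_10 and Mmul_8.0.1, without saying which build gave the counts. Of the symbols, 17389 matched RefSeq release 103 of Mmul_10, as did 1990 of 1992 LOC identifiers of recent number, so that build was used for positions, lengths, GC content and promoters. In 13 genes, none a member, counts were not whole, and all were rounded. Whether counting used strand is not given in the sources used here, so reads of overlapping genes may be shared.

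TMM factors and the quasi-likelihood test (no block, filterByExpr by group) came from edgeR 4.0.16 in R 4.3.3, with limma 3.58.1 and DESeq2 1.42.0 as alternatives. The SE of a log2 fold change was taken as its size over the square root of the F statistic. Ratios and within-batch differences had 0.5 counts added. The depth, 10593804 to 14102695 counts, limits genes with few counts most. Floors cover counting error only, since PCR copies cannot be told from molecules. On simulated counts for 11409 genes the test recovered 149 of 197 changed genes (92.6% at a log2 change of 2 and 60.2% at 1) with 9 false calls. The simulated libraries were drawn independently, with no batch shared between the groups. They also held fewer changed genes than were called in the data (878 higher and 1230 lower). These rates therefore need not hold for the libraries here.

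Values in every library are given for members past the threshold, GAPDH and the most abundant member of each step, for up to 3 genes per direction of other lists, and means for up to 2 abundant genes of a marker list. PDK3, LDHB, ENO3, SLC16A7, PYGL, GYG1, PPP1R3C, NANOS2, DDX4, FGFR3, COL3A1, ACTA2 and PDGFRA were named beside them after their values were seen. So were GFRA1, ZBTB16, SALL4, DAZL, MAGEA4, PIWIL4, ERBB4, TSPAN33, FATE1 and FSHR. The members and lists were chosen with earlier results of these data known. By the labels, same-numbered libraries share a batch, and their deviations from the group means correlated (r = 0.81, 0.48 and 0.50 across genes). Unlike-numbered libraries of batch 2 correlated about as much (r = 0.53 and 0.47). These values show the batches and no pairing by replicate number within batch 2. Because of the batches, the blocked fit is given where it changes the call of a member or a list's count. Replicates 2 and 3 of a group differed beyond sampling noise (chi-square per degree of freedom 3.36 and 3.64, beside 44.8 to 57.0 against replicate 1) and were kept as 2 samples. A result of a neighbouring pathway list is not reported here.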

Additional observations from a re-analysis of the deposited data

How the results depend on the processing

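The counts of 14 members higher and 1 lower depended on how the batches were treated. They became 30 and 9 with the replicate block and also with batch as a term, 33 and 7 with the block and a correction for GC content and length, and 29 and 8 in batch 2 alone. When replicates 2 and 3 of each group were summed, an alternative chosen with earlier results known, 8 and 0 remained without a batch term (DESeq2 not run on the sums), and 29 and 8 with one. The sums without a batch term lost PFKP, ENO2, PKM, LDHA, SLC16A1, PDK2 and PDK4. Over all tested genes, 878 were higher and 1230 lower without the block and 3587 and 3347 with it, and 206 and 487 in the summed fit. They were 3374 and 3015 of 11237 with the block and GC correction, 3041 and 3085 of 11605 in batch 2 alone, and 3669 and 3420 of 11992 for the sums with a batch term. Leaving out 1 library gave 12 to 17 higher and 1 lower, and a median over the citric acid cycle of -0.0114 (without SSC PDGF+ replicate 1) to 0.12. Over all 11748 to 11792 tested genes, these fits gave 435 to 1284 higher and 726 to 1726 lower. With the block and GC correction 3 members changed sign: MPC1 to 0.43, IDH3G to 0.18 and SUCLG2 to -0.01. RLE, upper quartile and library-total scaling, other filters, DESeq2 and limma-voom gave 14 to 16 higher and 1 lower, with HK1 added by library totals and HK1 and PDK3 by DESeq2. Over all 10512 to 14791 genes tested in these settings, 680 to 1181 were higher and 865 to 1544 lower. The causes were not tested.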

Other observations

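Glycogen genes were not among the members, and 4 of 11 tested rose and 0 fell in edgeR without the block. With it 7 rose and 2, GYG1 and PPP1R3C, fell. The shares over all tested genes were 7.61% higher and 10.7% lower without the block, and 31.1% and 29.0% with it. GBE1, the branching enzyme, had 104, 84.5 and 74.9 CPM in SSC PDGF+ and 35.2, 23.3 and 27.0 CPM in SSC PDGF- (log2 fold change 1.62, edgeR adjusted p = 0.0017). GYS1, the glycogen synthase of most tissues, had 57.8, 96.4 and 96.1 CPM against 29.1, 43.9 and 38.7 CPM (log2 fold change 1.17, edgeR adjusted p = 0.014). PGM2, a phosphoglucomutase, rose by 0.70 (edgeR adjusted p = 0.0344). The fourth was PYGL, a glycogen phosphorylase, at 0.57 (edgeR adjusted p = 0.0349), so that genes of synthesis and of breakdown were both among them. The median over the 11 was 0.34, and of the 6 fits that each left out a library, the calls of PGM2 and PYGL held in 1, that of GYS1 in 3 and that of GBE1 in 6.

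The neighbouring lists were small, and their counts stand beside 7.61% of all tested genes higher and 10.7% lower. With the block these shares were 31.1% and 29.0%. Of the NADH shuttles and carriers, 0 of 12 passed in edgeR without the block, DESeq2 or limma-voom (2 at an unadjusted edgeR p under 0.05, and 3 higher and 2 lower with the block). Among gluconeogenesis genes and malic enzymes 1 of 5 passed: ME1, the cytosolic malic enzyme, rose from 37.6, 22.4 and 31.0 CPM in SSC PDGF- to 70.0, 54.0 and 50.8 CPM in SSC PDGF+ (log2 fold change 0.94, edgeR adjusted p = 0.0237), a call that held in 3 of 6 such fits. With the block 2 of the 5 were higher and 2 lower. PCK1, FBP1, FBP2 and G6PC1 had no count in any library.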
